A study of Homo sapiens with 9 samples.

Results

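MCF10A, a non-transformed line of human mammary epithelial cells, was sequenced in replicate libraries for a SLAM-Seq experiment, and the libraries numbered replicate 1 are described here against those numbered 2 and 3. All cells lacked endogenous JUN (JUN KO) and had been infected with vectors for a JUN-AID fusion protein, which is degraded when IAA (indole-3-acetic acid) is added, and for TIR1, the auxin receptor that this degradation needs. The no 4sU group of 3 libraries received no 4sU (4-thiouridine), a nucleoside that is built into new RNA and read as C in place of T after alkylation. In the DMSO 4sU group, also 3 libraries, DMSO for 1 h was followed by 100 µM 4sU for 1 h, and the IAA 4sU group received 100 µM IAA in place of DMSO. The labels do not say whether the no 4sU control was given DMSO. Cells grew in a medium with horse serum, insulin, hydrocortisone, cholera toxin and EGF. The no 4sU and DMSO 4sU libraries of replicate 1, 2 of the 9 samples, were set against the 4 libraries of replicates 2 and 3. Replicate 1 was selected on its measured CPM values, which earlier work on these libraries had shown to stand apart, and its genes were chosen by the same values, so its difference from the others is given as a description, with no test. The labels do not say that different numbers stand for separate cultures, and the p-values further on measure only the spread between these libraries.

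Basal mammary epithelial cells grow in response to EGF-family ligands, which they also make themselves. Amphiregulin (AREG), epiregulin (EREG) and epigen (EPGN) are made as membrane proteins, are cut free by proteases and bind the EGF receptor on the same or neighbouring cells. Epithelial cells also secrete chemokines such as CXCL8 and CCL20, which call in neutrophils and lymphocytes and are switched on by NF-kappaB. Genes for ribosomal proteins, glycolytic enzymes and mitotic proteins follow the growth state of a culture, and enzymes induced by NRF2 supply NADPH and remove reactive compounds.

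Of 26869 genes in the table, 9017 had a mean of at least 5 CPM (read counts scaled to library size) over the 6 libraries and were compared. This mean includes the replicate 1 libraries, so a gene near the limit could pass only because it was high in them. METRN, named further on, is such a gene. With a minimum mean of 20 CPM, 136 genes were higher and 79 lower among 5093. Just below this limit lay the transcript NM_001293178, with 3.34, 5.37 and 6.24 CPM in no 4sU replicates 1, 2 and 3. Just above it lay PCCA, a subunit of propionyl-CoA carboxylase, with 8.95, 3.58 and 4.12 CPM in the same libraries. A gene was counted as higher or lower where replicate 1 lay beyond both other libraries in both groups, and at least 1.5-fold from their mean in each group on the scale log2(CPM + 1). By this rule 285 genes were higher in replicate 1, which is 3.16% of the genes compared, and 114 were lower, which is 1.26%. The size of the counted differences, averaged over both groups, ran from 0.59 to 1.96 for the higher and from 0.59 to 1.54 for the lower genes on the log2 scale. The same count for replicates 2 and 3 against each other gave 29 genes (0.322%), against 561 (6.22%) for replicate 1 against 2 and 311 (3.45%) for replicate 1 against 3. Within the no 4sU group alone 1086 genes (12%) were higher and 1057 (11.7%) lower. Within the DMSO 4sU group alone 728 (8.07%) were higher and 363 (4.03%) lower. A gene counted in both groups is also counted in each group alone, so the counts of 1 group are at least as large by construction. The values of both groups are given throughout.

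Total reads were similar in the 6 libraries, between 18997637 and 24014195, and replicate 1 lay between replicates 2 and 3 in both groups. The no 4sU replicate 1 library stood farthest from the rest. On the first principal component of the values centred within each group, which held 60.9% of the variance, it lay at -31.4, against 15.5 and 16.0 for no 4sU replicates 2 and 3. DMSO 4sU replicate 1 lay at -15.8 on the same side, with DMSO 4sU replicates 2 and 3 at 10.7 and 5.13. Over the 9017 genes the difference of replicate 1 in one group correlated with that in the other at r = 0.40 (Spearman's rho = 0.39), and 64.0% of genes had the same sign in both. Genes are not independent replicates, and the 2 differences come from different libraries. Of 14 markers of basal mammary epithelium, 13 had a mean of at least 5 CPM and the other, ANXA8, was under 1 CPM. KRT14 was near this limit, with 10.4, 3.95 and 3.85 CPM in no 4sU replicates 1, 2 and 3 and 4.82, 3.79 and 5.28 CPM in the DMSO 4sU libraries. The summed level of the 14 markers was 10153 and 10151 CPM in the replicate 1 libraries and between 7399 and 8918 CPM in the others. The sum was weighted by abundant genes. S100A2 had 4544, 2324 and 2367 CPM in no 4sU replicates 1, 2 and 3, and LAMB3 had 2311, 1050 and 900 CPM. KRT6A went the other way, with 1177, 2023 and 1854 CPM. Over the 13 tested markers the median difference was -0.02, with 6 above and 7 below 0. Of 9 fibroblast markers 6 never reached 1 CPM, with COL1A2 at 0, and the sum was 41.7 and 38.2 CPM in replicate 1 against 55.8 to 66.2 CPM. Most of this sum came from FAP, with 28.5, 47.5 and 45.7 CPM in no 4sU replicates 1, 2 and 3, and from DCN. COL1A1 went the other way in DMSO 4sU replicates 1, 2 and 3, with 5.93, 3.31 and 3.86 CPM. Of 10 markers of blood and endothelial cells 7 were at 0 in every library (among them PTPRC, CD3E, HBB, HBA1, VWF and CDH5), and the sum was 9.78 and 10.6 CPM in replicate 1 against 3.49 to 5.41 CPM. Most of that sum came from the genes CD68 and CD14. Of 9 markers of luminal hormone-responsive cells, PGR, TFF1 and TFF3 were at 0, and the sum was between 160 and 246 CPM. The part of these sums in the differences described here was not tested, and fewer cells of a kind and less RNA per cell cannot be told apart in bulk libraries.

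**Figure D1:**
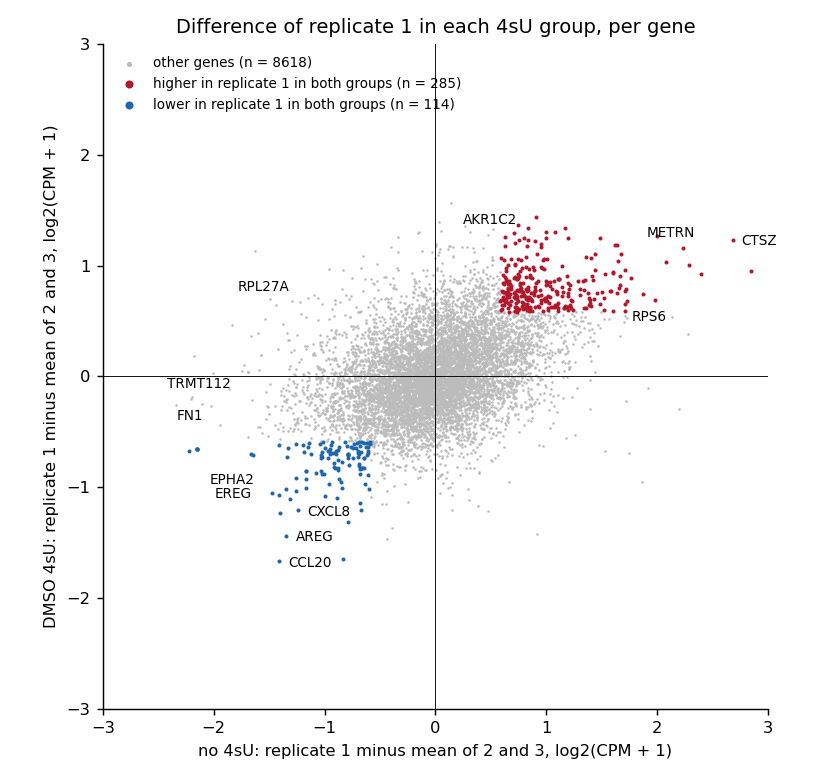
Each point is a gene, at its difference between replicate 1 and the mean of replicates 2 and 3 in the no 4sU libraries (horizontal axis) and in the DMSO 4sU libraries (vertical axis), in log2(CPM + 1). Red points are the 285 genes counted as higher in both groups and blue points the 114 counted as lower; CCL20 and AREG lie far below 0 on both axes, while RPL27A, TRMT112 and FN1 lie far to the left in the no 4sU libraries without a matching position in the DMSO 4sU libraries.

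The genes lowest in replicate 1 included secreted signals of the epithelium. CCL20, a chemokine that attracts dendritic cells and lymphocytes, had 313, 868 and 797 CPM in no 4sU replicates 1, 2 and 3. In DMSO 4sU replicates 1, 2 and 3 it had 220, 682 and 723 CPM. The difference averaged over both groups was -1.54 (SE 0.09, from 6 libraries with 3 residual degrees of freedom), or 2.90-fold lower, the largest difference among the lower genes. CXCL8, the neutrophil chemokine interleukin 8, had 101, 238 and 243 CPM without 4sU and 57.3, 127 and 142 CPM with it, a difference of -1.22 (SE 0.06). CXCL3, a chemokine of the same family, was also lower, with 84.4, 132 and 151 CPM without 4sU and 62.9, 85.6 and 108 CPM with it, a difference of -0.67 (SE 0.14). For each of them replicate 1 lay below the other libraries of its group, as the rule demands. Of 19 tested genes of NF-kappaB and cytokine signalling these 3 were counted as lower (15.8%, against 1.26% of all genes) and none as higher (against 3.16%). The median difference was -0.31, at -0.25 without and -0.50 with 4sU. All 3 were among the 10 chemokines and cytokines of this list, and none of its 9 feedback genes was counted. CXCL1, a further chemokine of this family, had a difference of -0.40 and was not counted.

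Of 5 tested EGF-family ligands 3 were counted as lower in replicate 1, while 1.26% of all genes were lower and 3.16% higher. The median difference was -0.98 over the 5, against a median of 0.00 over all genes. AREG had 4.94, 12.7 and 15.6 CPM in no 4sU replicates 1, 2 and 3 and 6.26, 19.1 and 18.2 CPM in the DMSO 4sU libraries, a difference of -1.39 (SE 0.10). EREG had 27.8, 82.0 and 75.8 CPM without 4sU and 28.6, 66.6 and 54.5 CPM with it, a difference of -1.26 (SE 0.16). EPGN had 102, 243 and 193 CPM without 4sU and 108, 229 and 171 CPM with it, a difference of -0.98 (SE 0.20). The levels of all 3 in replicate 1 were thus similar in both groups, and their folds were 2.62, 2.40 and 1.97. The remaining ligands were not counted, with HBEGF (heparin-binding EGF-like growth factor) at a difference of 0.19 and TGFA (transforming growth factor alpha) at -0.23. Of 10 tested transcripts of ERK feedback, which EGF receptor signalling induces, none was lower. The transcription factor ETV4 was the 1 member counted as higher, with 7.89, 4.23 and 3.46 CPM without 4sU and 11.0, 4.15 and 6.16 CPM with it. Among the libraries of replicates 2 and 3, ETV4 exceeded the limit of 5 CPM only in DMSO 4sU replicate 3. EPHA2, a receptor tyrosine kinase for ephrins, was lower with 25.8, 76.4 and 64.8 CPM without 4sU and 20.7, 46.3 and 42.7 CPM with it, a difference of -1.24 (SE 0.14).

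CXCL8, CXCL3, EPGN, EREG and AREG lie on 1 stretch of chromosome 4, which holds CXC chemokines and EGF ligands side by side. In GENCODE coordinates of GRCh37 it runs from the start of CXCL8 at 74606236 to the end of AREG at 75320722, a length of 714 kb. Of the 8 tested genes on it 5 were counted as lower and 0 as higher. The other members were CXCL1, CXCL2 with a difference of -0.11 and MTHFD2L, a mitochondrial folate enzyme, with 0.01. On chromosome 4 as a whole 17 of 338 tested genes were lower (5.03%), the highest share of any chromosome, against 1.26% over all genes. The median GC content of these 338 genes at the transcript end was 34.0%, and 7 genes were lower once the trend with GC content, described further on, was removed. The stretch was looked at after the values of its genes had been seen.

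The promoters of CCL20, CXCL8, EPGN, EREG and AREG are shown because these genes were low together in replicate 1. They are a choice among the lower ligands and chemokines, as CXCL3 was also counted as lower and is not shown. The 150 bases before the start of each gene shown, on the gene's strand and from RefSeq on GRCh38.p14, carry the TATA box motif TATAAA close to the start. Capitals mark every TATAAA and every TGANTCA (the AP-1 motif, bound by JUN and FOS) and TGACGTCA (the CRE motif, bound by CREB and ATF proteins), on the strand shown. The CCL20 window is chr2:227813692-227813841, that of CXCL8 chr4:73740419-73740568, that of EPGN chr4:74308320-74308469, that of EREG chr4:74364995-74365144 and that of AREG chr4:74444986-74445135, all on the plus strand.
CCL20: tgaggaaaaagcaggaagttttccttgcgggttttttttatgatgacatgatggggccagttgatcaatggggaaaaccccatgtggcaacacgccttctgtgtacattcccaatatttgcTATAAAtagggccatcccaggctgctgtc
CXCL8: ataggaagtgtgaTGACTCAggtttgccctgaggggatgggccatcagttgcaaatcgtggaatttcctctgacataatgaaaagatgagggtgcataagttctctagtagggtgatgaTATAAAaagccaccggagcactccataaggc
EPGN: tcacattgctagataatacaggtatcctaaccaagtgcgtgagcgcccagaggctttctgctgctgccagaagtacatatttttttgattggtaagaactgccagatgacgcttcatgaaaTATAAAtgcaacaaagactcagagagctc
EREG: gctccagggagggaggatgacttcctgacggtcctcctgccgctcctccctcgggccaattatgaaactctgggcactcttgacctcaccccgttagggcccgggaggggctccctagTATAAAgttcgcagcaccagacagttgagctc
AREG: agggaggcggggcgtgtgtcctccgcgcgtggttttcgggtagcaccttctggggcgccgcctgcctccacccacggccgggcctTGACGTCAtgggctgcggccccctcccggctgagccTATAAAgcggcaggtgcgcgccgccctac

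In these windows the first base of TATAAA lies 29 bases before the start in CCL20, EPGN and AREG, 31 in CXCL8 and 32 in EREG. The shares that follow were counted on both strands of the whole RefSeq promoter windows, which are longer than the stretches shown and reach past the start. TATAAA was present in 11 of 89 lower genes with a promoter in the table (12.4%), in 10 of 225 higher genes (4.44%), in 370 of 7292 tested genes (5.07%) and in 11.5% of all 35116 promoters. TGANTCA was present in 3.37% of lower, 3.11% of higher and 4.20% of tested genes, and in 7.71% of all promoters. TGACGTCA was present in 5.62%, 3.11% and 3.52% of these genes and in 1.85% of all promoters. CXCL3 and EPHA2 held no TATAAA on their own strand in this window. The motifs were chosen after the genes were known, and a match of letters is a description and not a binding site.

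Genes of mitosis made up another group on the lower side. All 25 tested genes of the mitosis list had a difference below 0, with a median of -0.37, at -0.33 without and -0.43 with 4sU. Of these 25 genes, 3 were counted as lower (12%, against 1.26% of all genes). KIF20A, a kinesin needed for cytokinesis, had 30.2, 75.4 and 63.0 CPM in no 4sU replicates 1, 2 and 3 and 37.7, 79.5 and 59.6 CPM in the DMSO 4sU libraries, a difference of -1.01 (SE 0.19). TOP2A, the topoisomerase that untangles chromosomes, had 71.1, 122 and 117 CPM without 4sU and 65.1, 109 and 96.4 CPM with it, a difference of -0.69 (SE 0.07). HMMR, which acts at the spindle poles, had 17.1, 30.2 and 26.3 CPM without 4sU and 16.2, 28.8 and 21.7 CPM with it. For the same list replicate 2 lay above replicate 3 by a median of 0.16. Of the genes of DNA replication 0 of 27 were counted, with a median of 0.05. Further genes of cell division outside the list were noticed after their values were seen, among them CKS1B, a subunit of the cyclin-dependent kinase complex, with a difference of -1.18, ANLN (anillin, of the cleavage furrow) with -1.01 and FAM83D (a spindle protein) with -1.05.

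The YAP/TAZ target genes that the study lists in its supplement had 19 lower and 0 higher members among 163 tested, against 1.26% lower and 3.16% higher over all genes, with a median of -0.37, at -0.29 without and -0.36 with 4sU. The study chose this list, and its 19 lower members overlap the groups already described. They include the ligands AREG, EREG and EPGN, the chemokine CXCL8, the receptor EPHA2 and the mitotic genes KIF20A, TOP2A, HMMR, CKS1B, ANLN, FAM83D, KIF18B, NUF2, PRR11 and DEPDC1B. The others were FAP, a membrane protease known from fibroblasts, HMGB2, HMGCS1 and NUP58. Among 20 tested textbook YAP/TAZ targets 1 was lower, CRIM1, with a difference of -0.82, none was higher, and the median was -0.20.

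Single genes were also far down. CASP8, the caspase that starts apoptosis at death receptors, had 32.8, 93.7 and 83.1 CPM without 4sU and 29.7, 74.5 and 68.3 CPM with it, a difference of -1.32 (SE 0.09). CLEC2D, a ligand for a natural killer cell receptor, had a difference of -1.24 (SE 0.31). PTMA (prothymosin alpha) had 77.6, 337 and 396 CPM without 4sU and 273, 450 and 422 CPM with it, so that its difference of -1.45 (SE 0.46) came mainly from the library without 4sU. The microRNA genes MIR1244-1, MIR1244-2, MIR1244-3 and MIR1244-4 carried identical values, with a difference of -1.40 for each, and lie within PTMA and copies of its sequence. Reads of these genes and of PTMA cannot be told apart with certainty, and the 4 are uncertain members. CDH1 (E-cadherin), the adhesion protein that joins epithelial cells, was the only counted gene of the desmosome and adherens junction list, with 71.7, 186 and 139 CPM without 4sU and 109, 190 and 150 CPM with it, a difference of -0.89 (SE 0.24).

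**Figure D2:**
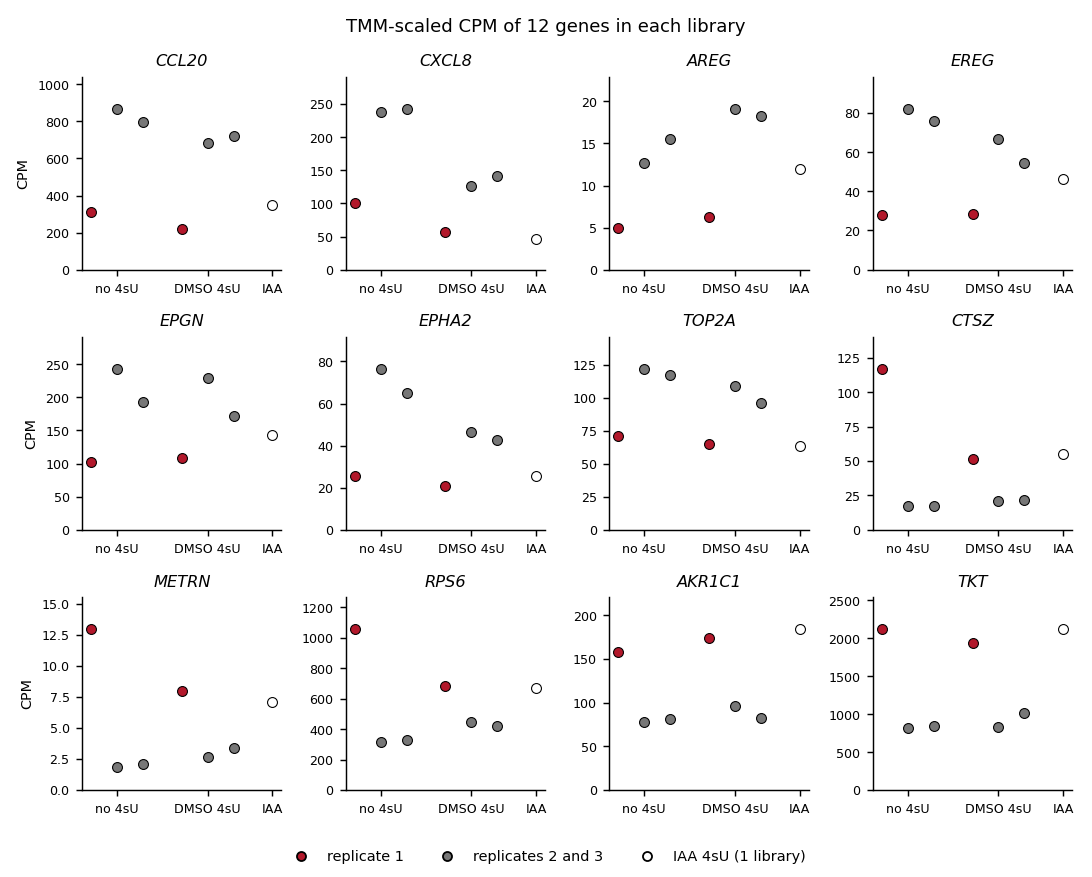
Each panel gives the CPM of 1 gene in each library on an axis from 0, with replicate 1 in red, replicates 2 and 3 in grey and the IAA 4sU library as an open circle. The red points lie below the grey points of their group for CCL20, CXCL8, AREG, EREG, EPGN, EPHA2 and TOP2A and above them for CTSZ, METRN, RPS6, AKR1C1 and TKT, as the choice of genes demands.

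On the higher side the group with most members was that of cytosolic ribosomal proteins, with 19 of 64 tested genes counted as higher (against 3.16% of all genes) and 0 as lower. The median difference was 0.57, at 0.65 without and 0.58 with 4sU, and 58 of the 64 lay above 0, while replicates 2 and 3 differed by a median of 0.01. RPS6, the small subunit protein phosphorylated after growth signals, had 1058, 316 and 331 CPM without 4sU and 681, 445 and 423 CPM with it, a difference of 1.18 (SE 0.31). RPL11 had 428, 172 and 162 CPM without 4sU and 453, 233 and 263 CPM with it, a difference of 1.11 (SE 0.16). RPL8 and RPS28 were counted with differences of 1.15 and 1.11. RPL37 and RPL12, each with a difference of 1.33, lay higher on average but were not counted, as they moved mainly in the library without 4sU. Proteins of the small subunit were counted in 13 of 25 cases (median 0.78) and those of the large subunit in 6 of 39 (median 0.54). Ribosomal protein genes have many pseudogene copies, so reads can be split or lost between copies. Genes of ribosome biogenesis and MYC targets had 0 of 20 counted, with a median of 0.20.

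Of 16 tested genes of the NRF2 and antioxidant list 6 were counted as higher (37.5%, against 3.16% of all genes) and 0 as lower (against 1.26%). The median was 0.25. TKT (transketolase), an enzyme of the pentose phosphate pathway, had 2121, 816 and 837 CPM in no 4sU replicates 1, 2 and 3 and 1935, 830 and 1010 CPM in the DMSO 4sU libraries, a difference of 1.22 (SE 0.13). Others were FTL, the light chain of the iron store ferritin, and the aldo-keto reductases AKR1C1, AKR1C2 and AKR1C3, with differences of 1.06, 0.97, 1.02 and 0.92. AKR1C2 had 165, 95.9 and 93.6 CPM without 4sU and 252, 115 and 97.2 CPM with it, but the AKR1C genes are near-identical copies and their reads may be exchanged. Other NRF2 genes were not counted, with NQO1 at 0.33 and GCLM, TXNRD1 and SLC7A11 at -0.30, -0.30 and -0.29. Of the 16 genes 13 lay above 0, and GCLM, TXNRD1 and SLC7A11 were the 3 below it. The median was 0.41 without and 0.21 with 4sU.

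Of 14 glycolytic enzymes 3 were counted as higher (21.4%, against 3.16% of all genes). They were PKM (pyruvate kinase) with 921, 509 and 427 CPM without 4sU and 1105, 455 and 614 CPM with it, ALDOA (aldolase) at a difference of 0.89 and GAPDH at 0.69. The median of the enzymes was 0.26, and 0.09 with the GC trend removed, as described further on. None of 11 hypoxia targets outside glycolysis was higher (against 3.16%). Of these targets 1 was lower (9.09%, against 1.26%), the histone demethylase KDM3A with a difference of -0.71. With 3 and 1 counted members these shares say little about either part. The following lists had few counted members. Where any was counted as higher, the share ran from 4.76% (respiratory chain) to 22.2% (integrins), against 3.16% of all genes. Where any was counted as lower, it ran from 2.38% (respiratory chain) to 8.70% (cholesterol), against 1.26%. With so few counted members in each list, these shares say little about the lists. Of 9 integrin chains ITGA3 and ITGA5, which bind laminin and fibronectin, were higher at 0.81 and 0.78. Of 19 SRF and actin genes the actin-binding protein TAGLN2 was higher at 0.86. Of 21 genes of the amino acid response PHGDH and ASNS, enzymes of serine and asparagine synthesis, were higher at 0.90 and 0.72. Lists with members on both sides were the 16 ER chaperones (SDF2L1 at 0.87 and HSP90B1 at -0.65), the 20 aminoacyl-tRNA synthetases (SARS1 at 0.77, WARS1 at 0.60 and TARS1 at -0.78) and the 42 respiratory chain subunits (NDUFA13 at 0.92, NDUFS7 at 0.73 and SDHC at -0.74). In cholesterol synthesis and uptake HMGCS1 and STARD4 were lower, at -0.80 and -0.78, among 23 tested genes with a median of -0.09.

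The genes highest in replicate 1 belonged to no single list. CTSZ, a lysosomal protease, had 117, 17.6 and 17.1 CPM without 4sU and 51.1, 21.1 and 21.3 CPM with it, a difference of 1.96 (SE 0.42), and was the only counted gene of 18 lysosome and autophagy genes. METRN (meteorin, a secreted protein) had 13.0, 1.84 and 2.12 CPM without 4sU and 7.97, 2.66 and 3.42 CPM with it, a difference of 1.69 (SE 0.33). METRN passed the limit of 5 CPM only through the replicate 1 libraries, as every library of replicates 2 and 3 lay below it. S100A11, a calcium-binding protein abundant in epithelia, had 1535, 532 and 564 CPM without 4sU and 1589, 558 and 803 CPM with it, a difference of 1.37 (SE 0.20). For CTSZ and METRN the difference without 4sU, 2.68 and 2.23, was well above that with 4sU, 1.23 and 1.16, whereas S100A11 moved by similar amounts at 1.48 and 1.25. The remaining genes among the 12 highest were AP1S1 and VAMP2 of vesicle traffic, the chaperone subunit PFDN6, EPHX1 (epoxide hydrolase), MDFI, TRIR, FKBP10 (a collagen-folding isomerase), the pseudogene IGBP1P1 and SNORD50A, with differences from 1.35 to 1.90. Among the libraries of replicates 2 and 3, VAMP2 and EPHX1 exceeded 5 CPM only in DMSO 4sU replicate 3, and IGBP1P1 only in DMSO 4sU replicate 2. SNORD50A lies inside an intron of SNHG5, the 1 counted gene of 14 snoRNA hosts and long noncoding RNAs, which was itself higher by 0.65. Reads of the pair cannot be told apart with certainty.

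Many programmes of these cells had no counted member in either direction. As 3.16% of all genes were counted as higher and 1.26% as lower, a count of 0 in lists of this size says little about them. These were the keratins (9 tested), squamous differentiation (9), mesenchymal and matrix genes (14), the TGF-beta response (11), immediate early and AP-1 genes (13), the interferon response (8), antigen presentation (11), cell cycle inhibitors and p53 targets (20), fatty acid synthesis (12), heat shock proteins (14), metallothioneins (5), the glucocorticoid (14), cAMP (8) and insulin (9) responses, BMP and ID genes (6), Notch (6), Wnt (8), the circadian clock (6), proteases (12), the proteasome (30), SR proteins and splicing (17) and the basal markers (13). With the GC trend of each library removed, as described further on, 1 BMP and ID gene was higher and 1 glucocorticoid gene lower. Members of these lists could still differ within a group, as KRT81, FN1, MYC and HSPA1A did in no 4sU replicate 1, where all 4 were lower. KRT81 went opposite ways in the 2 groups, with differences of -1.29 without and 0.68 with 4sU. SR proteins and splicing had a median of -0.35, with 15 of 17 genes below 0, at -0.39 without and -0.09 with 4sU. JUN, the gene engineered in these cells, had 47.1, 59.3 and 47.6 CPM without 4sU and 29.8, 19.7 and 25.1 CPM with it, a difference of 0.12 (SE 0.23). As the degron acts on the protein, this level checks no label. Of all counted genes, 41 of the 285 higher and 28 of the 114 lower belonged to any of the lists.

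**Figure D3:**
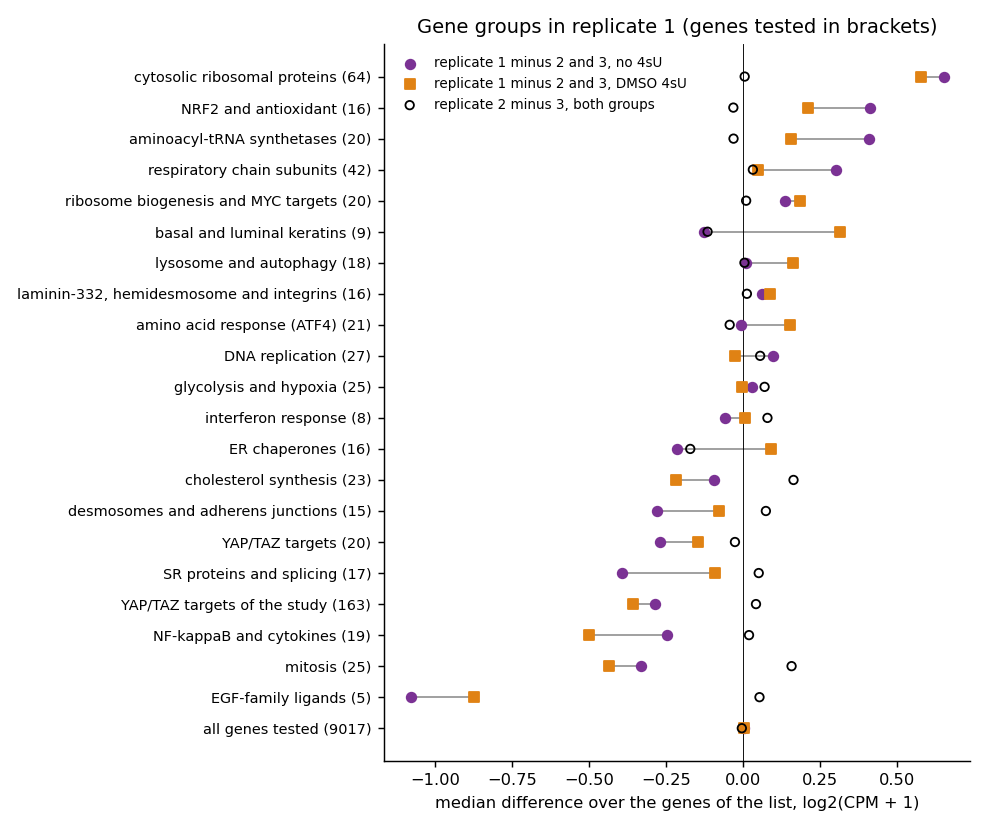
Median difference of the genes of each list in log2(CPM + 1), for replicate 1 against 2 and 3 without 4sU (circles) and with DMSO and 4sU (squares), and for replicate 2 against 3 averaged over both groups (open circles). Ribosomal proteins lie at 0.65 and 0.58 and EGF-family ligands at -1.08 and -0.87, while the 9017 genes tested lie at 0.00.

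The counted genes shared a feature that the rule did not use, the base composition at the transcript end, where these 3′ libraries are read. GC content over the last 500 bases of the transcript was known for 8681 genes (96.3%) and had a median of 56.0% for the higher genes, 33.2% for the lower genes and 40.2% for all genes tested. The difference of replicate 1 correlated with it over genes at rho = 0.30 without and 0.53 with 4sU, against 0.07 and -0.32 for replicate 2 minus replicate 3. When the genes were ranked by GC content and cut into 10 bins of about equal size, 0% of those in the lowest bin were higher and 3.15% lower. In the highest bin 14.5% were higher and 0.116% lower. Chromosome 19, whose tested genes had a median GC content of 55.2%, held 57 higher genes among 439 (13.0%). The interval over which reads were counted was also shorter for the higher genes, with a median of 478 bases against 999.5 for the lower genes and 1235 for all.

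**Figure D4:**
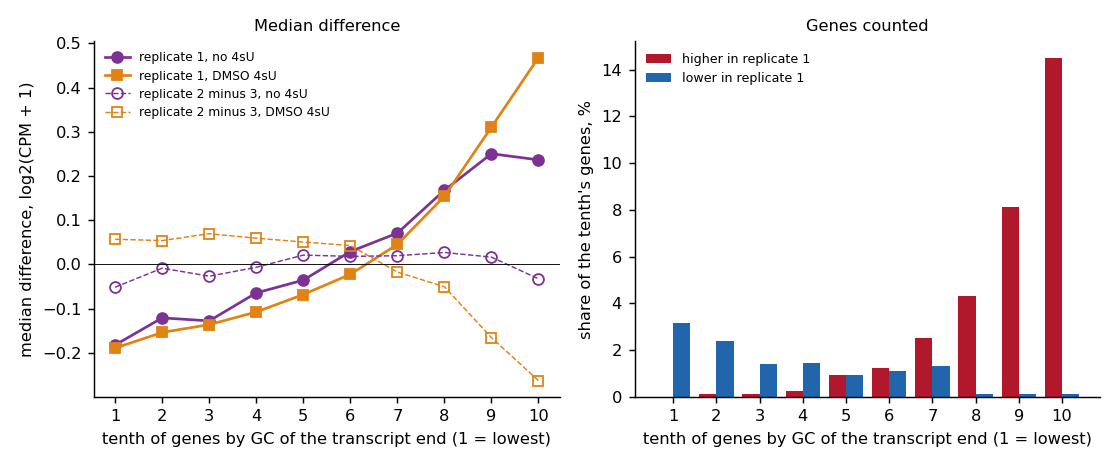
Genes are ranked by GC content of the transcript end and cut into 10 bins, from lowest (1) to highest (10). The left panel gives the median difference of replicate 1 from replicates 2 and 3 and of replicate 2 from 3, in log2(CPM + 1), and the right panel the percentage of genes counted as higher (red) or lower (blue) in replicate 1. The share of higher genes goes up to 14.5% in the highest bin, and the share of lower genes is 3.15% in the lowest.

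Because of this, each library's trend with GC content was removed and the count repeated, an alternative chosen after seeing the data. Then 102 genes (1.17% of 8681) were higher and 81 (0.933%) lower. Of the 276 higher genes with a known GC content 75 (27.2%) were still counted, and of the 106 lower genes 57 (53.8%). CCL20, CXCL8, AREG, EREG, EPGN, EPHA2, CASP8 and KIF20A were still counted as lower, with CCL20 at -1.36, AREG at -1.27 and CXCL8 at -0.98. No longer counted were PTMA, CXCL3, CDH1, TOP2A, HMMR, CRIM1, STARD4 and TARS1, with values from -1.29 for PTMA to -0.52 for CXCL3, so that 4 of the 8 genes on the chromosome 4 stretch remained. EPHA2, with a GC content of 46.6%, moved the other way, from -1.24 to -1.33. The ribosomal list had 10 higher genes left and a median of 0.49, the NRF2 list 5 and 0.35, and the mitosis list 1 lower gene and -0.36. The study's YAP/TAZ list had 14 lower genes and a median of -0.28. PKM alone of the glycolytic enzymes, and neither integrin, was still counted. Chromosome 19 had 9 higher genes left. Of the higher genes 10 had a GC content below the median of all genes, among them RPS6, RPS3, RPL9, AKR1C2, SCG5 and ZNF384. Of the lower genes 24 lay above it, among them EPHA2, CKS1B, HMGCS1, HSP90B1, SDHC and MAT2A. Removing the trend tends to enlarge the differences of such genes by its construction, so that their staying counted says nothing further about them. With the trend of interval length removed the ribosomal median was 0.25, and 191 genes were higher and 127 lower. The cause of the GC trend was not tested.

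The T>C conversion rate, the share of T positions read as C, was not used by the rule. Over all genes tested its median was 0.251% in DMSO 4sU replicate 1 and 0.188% in both replicates 2 and 3, over a background of 0.0569% to 0.0592% in the libraries without 4sU. For the lower genes it was 0.190% in replicate 1 and 0.117% and 0.136% in replicates 2 and 3. For the higher genes it was 0.235%, 0.206% and 0.196%. Replicate 1 had the highest median in all 3 sets, and the log2 ratio of its rate to that of the others had a median of 0.34 for the lower genes, 0.14 for the higher genes and 0.28 for all. With 1 labelled library of replicate 1 there is no replicate check of this order.

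The IAA 4sU group gave a further set of values outside the rule. Its 3 columns were identical in every row, so it counts as 1 library, and which replicate it holds is unclear. For 246 of the 285 higher genes (86.3%) and 94 of the 114 lower genes (82.5%) its level lay nearer to DMSO 4sU replicate 1 than to the mean of replicates 2 and 3, against 65.5% of all genes. The counted genes were chosen for a wide gap between DMSO 4sU replicate 1 and replicates 2 and 3. For a library that lies nearer to replicate 1 over all genes, higher shares among them follow from that choice. CCL20 had 350 CPM in the IAA 4sU library, CXCL8 46.3, AREG 11.9, EPHA2 25.6, CTSZ 55.3 and TKT 2116. Over all 9017 genes this library differed from DMSO 4sU replicate 1 with an SD of 0.220 on the log2 scale, and from replicates 2 and 3 with SDs of 0.406 and 0.319. It was nearest to replicate 1 for 4865 genes, to replicate 2 for 1734 and to replicate 3 for 2418. The IAA treatment and the single library cannot be told apart.

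Replicates 2 and 3 were compared by a test that does not involve replicate 1 as a group. With limma and Benjamini-Hochberg adjustment over 9017 genes, 0 genes (0%) differed between them at an adjusted p of 0.05, and 242 had an unadjusted p under 0.05. edgeR and DESeq2 also gave 0, with 241 and 153 at the unadjusted level. This spread includes the replicate 1 libraries, and without no 4sU replicate 1 or DMSO 4sU replicate 1 the count was 48 or 57. Replicates 2 and 3 were therefore not shown to be alike.

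Whether the difference of replicate 1 depended on 4sU was tested as an interaction in limma, and 151 genes (1.67%) passed at an adjusted p of 0.05. Each replicate 1 arm is 1 library, which is assumed to vary like replicates 2 and 3, and replicate 1 was selected on the same values, so the test compares these libraries and is not evidence of an effect of 4sU. The difference was larger in size without 4sU for 134 of them and with 4sU for 17, and 115 were lower and 36 higher in no 4sU replicate 1. Their median size of difference was 1.19 without and 0.31 with 4sU. With the replicate number as a block 1470 genes passed, including all 151. The count rested on single libraries, as 0 genes passed without no 4sU replicate 2 and 2 without no 4sU replicate 3, against 244 without DMSO 4sU replicate 2 and 1013 without DMSO 4sU replicate 3. FN1 (fibronectin) had 95.0, 505 and 385 CPM without 4sU and 406, 478 and 455 CPM with it. TRMT112, a partner of methyltransferases, had 337, 1604 and 1492 CPM without 4sU and 1421, 1463 and 1787 CPM with it. RPL27A went opposite ways, with 346, 1056 and 895 CPM without 4sU and 1953, 1209 and 1193 CPM with it. No 4sU replicate 1 was thus low by itself for FN1 and TRMT112, with the other 5 libraries close together. IER5, an immediate early gene, had 94.6, 366 and 327 CPM without 4sU and 84.0, 85.5 and 97.4 CPM with it, so that no 4sU replicate 1 lay at the level of the 4sU libraries. Of the genes that passed, 2 were among the counted higher genes and 5 among the lower, and 8 were ribosomal proteins, of which RPL27A and RPL30 were lower and the other 6 higher in no 4sU replicate 1.

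**Figure D5:**
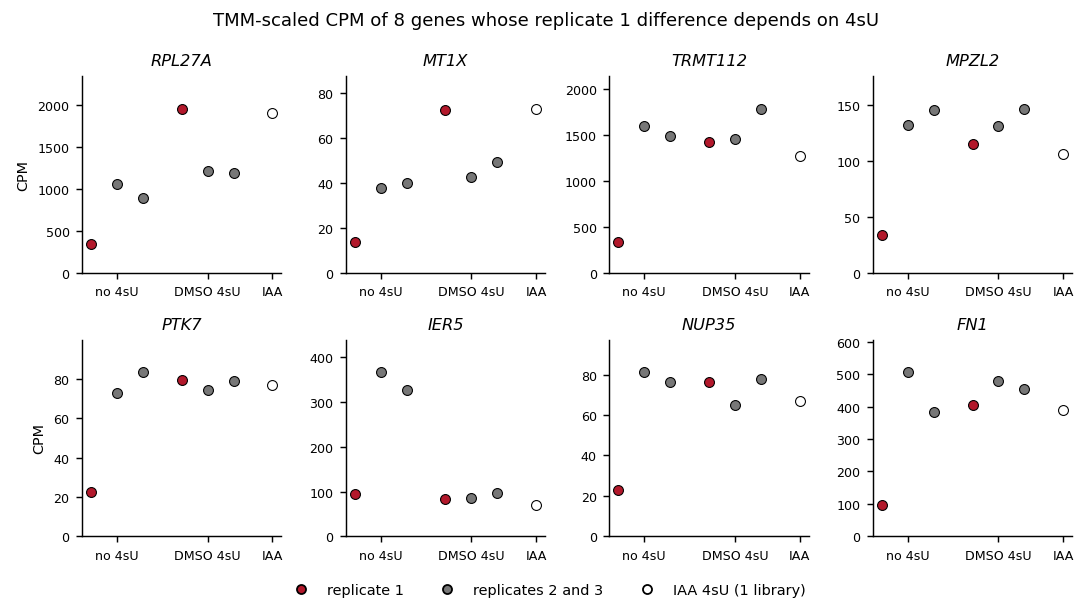
CPM in each library, on an axis from 0, for 8 of the 10 genes with the lowest p in the interaction test, with replicate 1 in red, replicates 2 and 3 in grey and the IAA 4sU library as an open circle. No 4sU replicate 1 is the lowest of the no 4sU libraries in all 8 panels, and in DMSO 4sU replicate 1 RPL27A and MT1X are above the other DMSO 4sU libraries.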

How the data were processed

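SLAM-Seq libraries of MCF10A cells, prepared with a 3′ end kit (QuantSeq FWD), were processed by the authors with a Nextflow SLAM-Seq pipeline. The authors' processing notes name build hg19. The deposited table holds 1 row per RefSeq transcript, read over an interval at its 3′ end, and gives for each library the T>C conversion rate as a fraction and a CPM value. The deposited CPM were treated as a signal per interval, since reads appear again wherever 2 transcripts have the same interval. All non-zero values were whole multiples of 1 read (100%, within 0.05 of a read), which gave the reads and library totals. Total reads set the precision of low genes. Names were found for 97.7% of rows, and a gene's distinct intervals (19.7% of genes had several) were summed. No sample column was left unused (0). The 3 IAA columns were identical and counted as 1 library.

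CPM were scaled by TMM (edgeR 4.0.16, R 4.3.3) and taken as log2(CPM + 1), which understates the change of low genes. The SE of a difference is that of an additive model of 4sU group and replicate 1. Tests used limma 3.58.1 with trended, robust variances and Benjamini-Hochberg adjustment. Alternatives were edgeR's quasi-likelihood test and DESeq2 1.42.0 on recovered reads, other pseudocounts, filters and scalings, 1 group alone and libraries left out. The fits were tested on simulated data with known changes, of which the interaction recovered fewer than the comparison of replicates 2 and 3. Trends with GC content and interval length (lowess, span 0.3) were removed as alternatives chosen after seeing the data. GC content came from GENCODE transcripts on GRCh37, and promoters from RefSeq on GRCh38.p14.

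To check for pairing, the deviation of each library from its group mean was correlated over genes with that of the same-numbered library of the other group. Pearson's r was 0.40, 0.34 and 0.44 for replicates 1, 2 and 3. As the mean is taken over 3 libraries, a replicate 1 that stands apart in both groups raises all 3 values. These values alone therefore cannot show pairing. The difference of replicate 2 from replicate 3, which leaves replicate 1 out, correlated between the groups at r = 0.34. The numbers were taken to pair the libraries, although the labels name no shared culture. The members and gene lists were chosen with earlier results of these data known. Genes were named by a rule: JUN, the 12 largest differences each way, up to 4 counted members of each list, 10 genes of the interaction test and the genes beside the 5 CPM limit. Genes that complete a list or a chromosome stretch, and those of low or high GC content, were named after their values were seen. Some items that the rule would name are not reported here.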

Additional observations from a re-analysis of the deposited data

Results flagged for a closer look

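In 151 genes the difference between the replicate 1 library and replicates 2 and 3 passed limma's interaction test between the no 4sU and DMSO 4sU groups, with an adjusted p under 0.05. Each arm of replicate 1 is 1 library, selected on the same values, so this compares libraries and not conditions. Without no 4sU replicate 2 or 3 the count was 0 or 2, and without DMSO 4sU replicate 2 or 3 it was 244 or 1013. The values below are the difference with 4sU minus that without, on the log2 scale, and the adjusted p was 0.0194 for each of the 10 genes. RPL27A, a ribosomal protein, had 2.19, and MT1X, a metal-binding metallothionein, had 2.07. TRMT112 had 2.01, FN1 (fibronectin) 2.0 and NUP35, a nuclear pore protein, 1.83. PTK7, a receptor of Wnt signalling, had 1.79, the adhesion protein MPZL2 1.75 and IER5 1.74. The value was below 0 for ACOT7, an acyl-CoA thioesterase, at -1.70, and for the transcript NM_207422 at -2.44. For 8 of these genes no 4sU replicate 1 was low, and for ACOT7 and NM_207422 it was high.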

How the results depend on the processing

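The counts of higher and lower genes in replicate 1, 285 and 114, depended most on the fold and group demanded. They were 17 and 10 at 2-fold and 2208 and 2146 with no minimum fold, 1086 and 1057 in the no 4sU group alone and 728 and 363 in the DMSO 4sU group alone. With a pseudocount of 5 CPM they were 145 and 72, with a mean of 20 CPM 136 genes were higher, and with the GC trend removed 102. Leaving out replicate 2, replicate 3 or single libraries gave 214 to 397 higher and 89 to 164 lower genes, with 222 higher genes without replicate 2 and 397 without replicate 3. The test of replicates 2 and 3 gave 0 to 57 genes when a library was left out. The interaction gave 469 genes with DESeq2, 60 without TMM scaling, 0 to 1013 with a library of replicate 2 or 3 left out, and 1470 with the replicate block; it cannot be estimated without a replicate 1 library. No other result was fitted with the block.

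Over the alternatives 51 of 473 list medians changed sign, in 24 lists whose reported median was at most 0.16 in size, and the changed values ran from -0.15 to 0.32, the highest being the keratins in the DMSO 4sU group alone. No direction holds for these lists. The reported median was larger than its spread in 14 of the 51, as follows. Laminins and integrins ran from -0.027 to 0.17, SRF and actin genes from -0.11 to 0.035 and DNA replication from -0.021 to 0.011 when replicate 3 or 2 was left out. In the no 4sU group alone the p53 list had -0.051 and Notch 0.0072. In the DMSO 4sU group alone DNA replication had -0.027, the proteasome -0.013 and luminal markers 0.014. With the GC trend removed TGF-beta had 0.042, SRF and actin 0.032, DNA replication -0.032 and Wnt 0.024. With the interval length trend removed DNA replication had -0.024 and the proteasome -0.077. No named gene counted as higher or lower changed sign. The cause of these changes was not tested.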
